A study of Mus musculus with 9 samples.

Results

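The genes described here encode the proteins that sense, signal and repair DNA damage. Membership followed a list of 48 gene symbols covering recombination, mismatch repair, end joining, excision repair and the checkpoint kinases, and every probe set annotated with 1 of these symbols alone was taken. In total 45 of the 48 genes had such a probe set, with 82 probe sets among the 22626 that were tested. Xrcc2 and Lig4 matched no probe set and Tdg matched only probe sets shared with pseudogenes, so these 3 genes were not analysed here as members.

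The samples were 9 Affymetrix arrays of total RNA from RAW 264.7, an established mouse macrophage cell line. Each of the 3 groups had 3 arrays. One group was untreated, another had been given lipopolysaccharide (LPS), a component of bacterial cell walls, at 100 ng/ml for 18 h, and the third overexpressed CstF-64 constitutively with no LPS named in its labels. CstF-64, the product of Cstf2, is an RNA-binding subunit of the factor that helps to cut mRNA 3' ends. All 3 groups share the same parent line, and the labels name no vector-only or mock-treated group. They do not give the promoter of the construct, whether the overexpressing cells were 1 clone or a pool, or whether the arrays of a group came from separate cultures. Every p-value given here thus refers to the spread among these arrays alone, and that spread may be technical.

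Cells meet DNA damage with a few dedicated pathways. Homologous recombination copies the sister chromatid to mend double-strand breaks, end joining ligates broken ends directly, and the Fanconi anaemia proteins clear crosslinks between strands. Mismatch repair corrects replication errors, base excision repair removes single damaged bases, nucleotide excision repair cuts out bulky lesions such as those made by ultraviolet light, and the checkpoint kinases halt the cell cycle meanwhile. Recombination and mismatch repair work mainly while DNA is being copied, and many of their genes are transcribed under E2F factors as cells enter S phase. In macrophages, LPS signals through the receptor TLR4 and is known to slow proliferation.

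The promoters of the 5 members with the largest change after LPS are shown because E2F sites are a known feature of S-phase genes. They come from RefSeq, build GRCm38.p6, and run from 250 bases before to 50 bases after the annotated start, 5' to 3' on the gene's strand. Capitals mark the letters TTGGCGC or TTCCCGC or TTCGCGC or TTGCCGC, which are forms of the E2F motif, on either strand. In order, the regions are chr9:103305077-103305376 on the plus strand for Topbp1, chr6:126939538-126939837 on the minus strand for Rad51ap1, chr5:114130185-114130484 on the plus strand for Ung, chr4:116123641-116123940 on the minus strand for Rad54l (the first of 2 listed starts) and chr11:101551906-101552205 on the minus strand for Brca1.
Topbp1: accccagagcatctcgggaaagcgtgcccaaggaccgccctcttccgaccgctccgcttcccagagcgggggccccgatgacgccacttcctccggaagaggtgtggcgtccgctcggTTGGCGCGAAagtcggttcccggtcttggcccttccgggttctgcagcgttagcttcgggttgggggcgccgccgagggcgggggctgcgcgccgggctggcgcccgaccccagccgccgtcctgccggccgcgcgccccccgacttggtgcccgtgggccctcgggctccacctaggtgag
Rad51ap1: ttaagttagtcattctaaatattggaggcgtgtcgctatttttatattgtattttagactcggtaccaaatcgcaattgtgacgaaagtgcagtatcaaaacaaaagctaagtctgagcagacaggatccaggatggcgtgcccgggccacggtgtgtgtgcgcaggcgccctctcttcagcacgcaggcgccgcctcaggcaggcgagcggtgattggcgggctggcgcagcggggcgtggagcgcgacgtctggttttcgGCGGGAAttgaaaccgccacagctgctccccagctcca
Ung: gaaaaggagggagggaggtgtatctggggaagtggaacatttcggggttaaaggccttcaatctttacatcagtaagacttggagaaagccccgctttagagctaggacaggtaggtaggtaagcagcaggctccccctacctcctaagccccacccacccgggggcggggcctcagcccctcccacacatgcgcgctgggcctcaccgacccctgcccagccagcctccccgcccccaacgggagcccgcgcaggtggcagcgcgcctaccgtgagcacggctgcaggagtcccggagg
Rad54l: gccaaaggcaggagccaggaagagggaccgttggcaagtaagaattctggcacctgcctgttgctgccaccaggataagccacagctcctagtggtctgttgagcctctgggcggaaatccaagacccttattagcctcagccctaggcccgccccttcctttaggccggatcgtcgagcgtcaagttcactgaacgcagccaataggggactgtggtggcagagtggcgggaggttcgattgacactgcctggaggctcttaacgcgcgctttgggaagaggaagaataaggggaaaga
Brca1: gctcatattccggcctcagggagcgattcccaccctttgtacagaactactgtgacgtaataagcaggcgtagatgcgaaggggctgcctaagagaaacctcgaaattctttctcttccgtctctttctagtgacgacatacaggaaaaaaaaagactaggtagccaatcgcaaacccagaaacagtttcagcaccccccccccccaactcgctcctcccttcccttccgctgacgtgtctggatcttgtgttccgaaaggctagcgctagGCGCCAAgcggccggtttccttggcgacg

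In the Topbp1 promoter 2 overlapping matches began at offsets -132 and -129 from the start. The match of Rad51ap1 began at offset 12 and that of Brca1 at offset 21, so both lay just inside the transcript. The windows of Ung and Rad54l held none of these letters. Of the 45 measured members, 36 had a promoter in the table, some with more than 1 start, giving 38 promoters. The E2F letters occurred in 22 of these 38 promoters (57.9%), against 9.57% of all 32851 promoters in the table and 12.1% of those of protein-coding genes. Among promoters of members that fell after LPS the share was 61.9% (13 of 21), and among those of the other members it was 52.9% (9 of 17). The letters CCAAT, which bind NF-Y, were in 13 of 21 promoters of members that fell (61.9%), in 7 of 17 of the others (41.2%) and in 37.4% of all promoters. TTTGAA, the core of the cell-cycle homology region, was in 0 of 21, in 2 of 17 (11.8%) and in 17.9% respectively. These are matches of letters within a window of 300 bases and show no binding, and a part of E2F in the changes was not tested.

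The arrays had been scaled alike, with trimmed means of 150.05 to 150.06 intensity units, although the median of the LPS arrays (42.75 to 49.3) was below that of the others (51.1 to 54.2). LPS array 1 and CstF-64 array 1 correlated least with their own groups, with the lowest mean r at 0.966. The macrophage identity of the cells was checked with lists of markers. Of 12 macrophage markers, 1 was at or below background on all 9 arrays. Among the others, Cd68 and Lyz2 had means over the 9 arrays of 3288 and 5040. At or below background on all 9 arrays were 6 of 8 lymphocyte, 5 of 10 granulocyte and mast cell and 7 of 10 fibroblast, endothelial and epithelial markers. All 12 genes of an LPS response list rose after LPS. Cstf2 read 397.8, 363.1 and 372.2 in the untreated arrays and 317.9, 361.5 and 394.5 in those labelled CstF-64. These ranges overlapped (log2 change -0.08, limma adjusted p = 1; two-sided exact permutation p = 0.4, where 3 against 3 cannot go below 0.1), so the probe set does not show the overexpression that the label names, and every direction given for CstF-64 rests on the label. A second, dimmer Cstf2 probe set read 114.7, 100.2 and 134.1 untreated and 97.1, 85.4 and 80.4 with CstF-64, lower on every array but not called (adjusted p = 0.763, exact permutation p = 0.1). Whether these probes read the transcript of the construct is not known. After LPS the 2 probe sets differed. The brighter one read 220.5, 248.1 and 195.9 and fell by 0.74 (adjusted p = 0.00343), and the dimmer one read 136.1, 107 and 113 and was not called (log2 change 0.03, adjusted p = 0.94).

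Values are deposited intensities. Log2 changes are differences of group means of log2(intensity + 13) over 3 arrays per group, and they understate the change of dim genes. Their standard error (SE) came from the limma fit to all 9 arrays, which also draws on the spread of other probe sets. The SE of a probe set was thus the same in every comparison and is not the spread of the compared groups alone. A gene was called at a Benjamini-Hochberg adjusted p under 0.05 from limma over all 22626 probe sets, by its brightest probe set. The highest reading of 27 bacterial control probe sets, 31.2, was taken as the limit of background. By this limit 34 of the 45 members were above background on all 9 arrays, 10 on some, and Bard1 on none. The members' mean intensities ran from 9.86 for Bard1 to 915 for Apex1, with a median of 119.5, compared with 69.97 over all named genes. In this bulk RNA, fewer cells of a kind and less RNA per cell cannot be told apart.

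After LPS the repair and checkpoint genes were mostly lower. Of the 45 measured members, 23 fell, Ercc1 rose and 21 did not pass the test. By comparison 17.1% of all 12393 named genes were called, 10.4% as lower and 6.67% as higher, while 51.1% of the members fell. The median change of the members was -0.73 on the log2 scale and that of all named genes -0.03, and 14 members fell by 1 or more on that scale. In 18 of the 23 that fell, the mean LPS intensity was at most 0.5 of the untreated mean. In 31 members all 3 LPS arrays lay below all 3 untreated arrays, and in 1 they lay above. This made 71.1% without overlap, against 33.9% of all named genes (20.6% lower, 13.3% higher). The split of calls over the whole array depended on scaling. Lower probe sets made up 64.3% of all calls on the deposited scale, 53.8% after quantile normalization and 39.5% after centring each array on its median, which moved the median of all named genes upwards. The members' median stayed below that of all named genes in both, at -0.59 against 0.03 with quantile normalization and at -0.57 against 0.13 with centring.

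**Figure D1:**
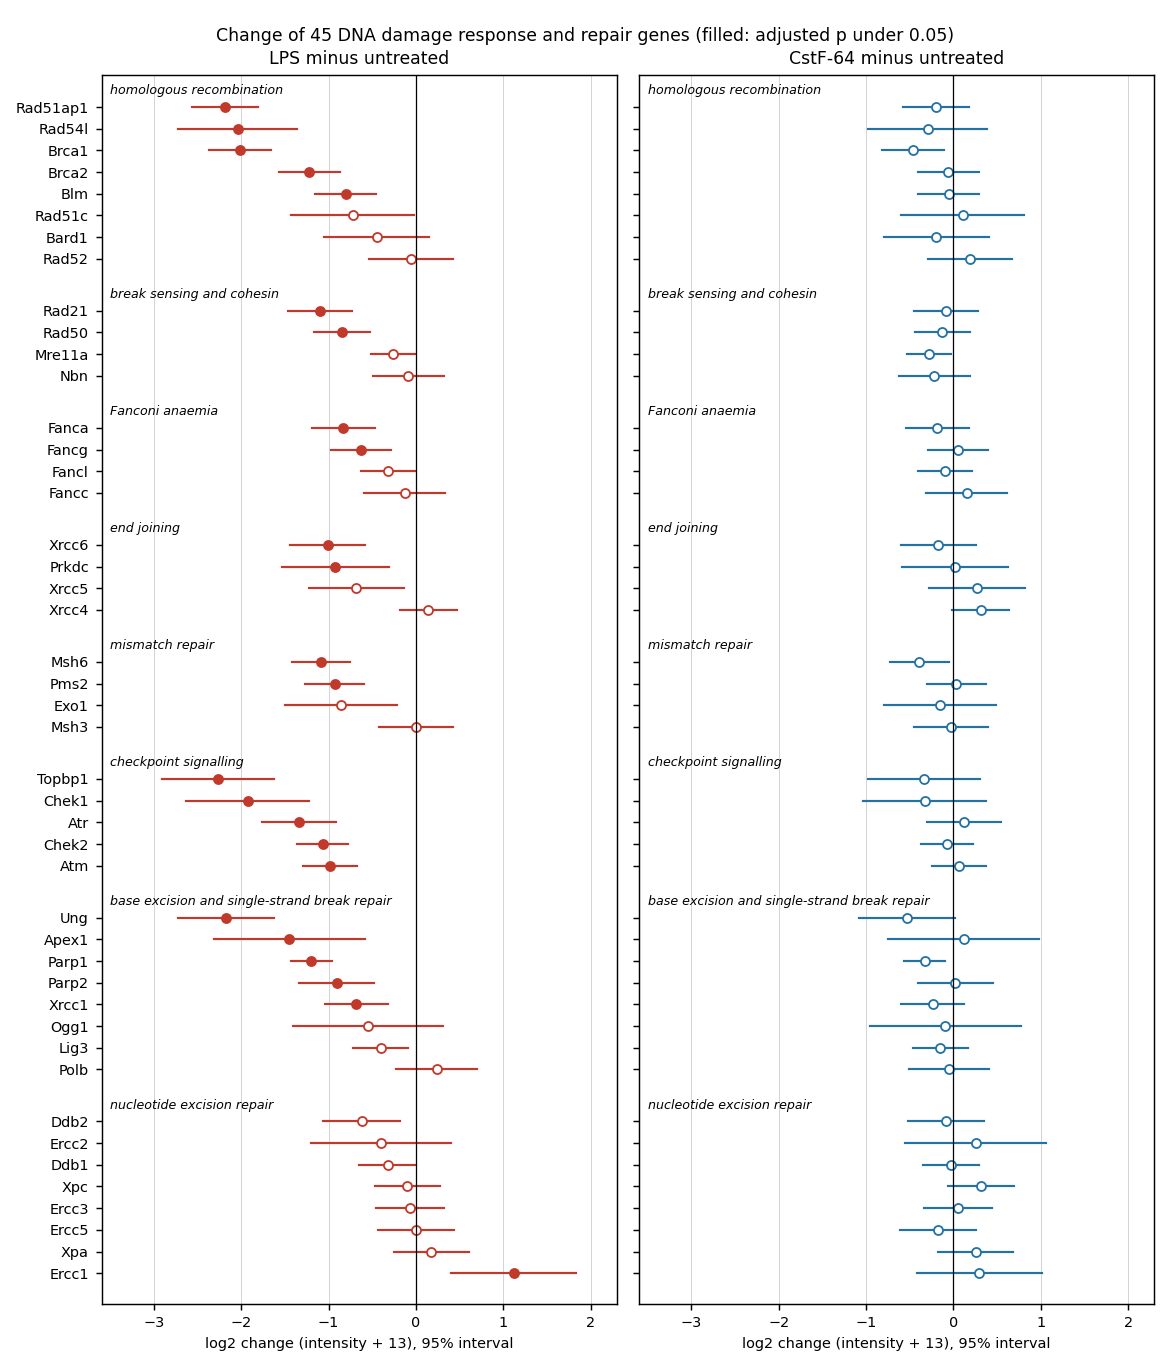
Log2 change with its 95% interval for each of the 45 members, ordered by pathway, in each comparison; filled points passed an adjusted p under 0.05. After LPS 23 points are filled to the left of 0 and 1 to the right, whereas no point is filled for CstF-64 against untreated.

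Homologous recombination lost transcript in 5 of its 8 measured genes (62.5%, against 10.4% of all named genes), with a median of -1.02. Rad51ap1, an accessory factor of strand exchange, read 255, 207.2 and 181.4 untreated and 35.7, 41.7 and 32.5 after LPS. The 2 groups were far apart, with a log2 change of -2.19 (SE 0.168, adjusted p = 2.62e-05). Rad54l, a motor that opens chromatin for strand invasion, read 392.9, 289.7 and 192.3 untreated and 48, 78.1 and 52.3 after LPS. Every LPS array was below the lowest untreated array, and the untreated arrays themselves ranged widely (log2 change -2.04, SE 0.305, adjusted p = 0.00168). Brca1, which directs broken ends towards recombination, read 243.1, 290.4 and 254.9 before and 44.5, 68.9 and 54.2 after LPS. It fell by 2.01 (SE 0.159, adjusted p = 3.28e-05). Brca2, a mediator of recombination, read 106.1, 118.8 and 102.9 untreated and 41.9, 46.4 and 30.9 after LPS. The groups were separate, and LPS array 3 was just below the limit of background (log2 change -1.22, SE 0.157, adjusted p = 0.000656). Blm, the helicase lost in Bloom syndrome, fell less, by 0.81 (adjusted p = 0.00655), from between 214.3 and 280.7 to between 116.1 and 162.2. Rad51c, another recombination gene, had all LPS arrays (20.7, 59.6 and 71.2) below the untreated ones (75.6, 100 and 80.2), but the spread among the LPS arrays left it uncalled (-0.73, adjusted p = 0.157). Rad52, a strand-annealing protein, overlapped between the groups (-0.06, adjusted p = 0.911). A second Rad52 probe set was lower on all LPS arrays, 1 of them below background, and was not called (-0.53, adjusted p = 0.229). Bard1, the partner of BRCA1, stayed at or below background throughout (1.8 to 17 over the 6 arrays), so no change could be read for it.

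Among the members, the checkpoint group was the one in which all measured genes fell, 5 of 5 (100%, against 10.4% of all named genes), with a median of -1.34. This did not hold for checkpoint genes at large. Of 13 others, from the broader repair list described below, 7 fell (53.8%) and 1 rose, with a median of -0.57. Topbp1, the activator of the ATR kinase, had the largest change of any member. It read 549.1, 531 and 400.1 untreated and 50.9, 126.4 and 113.1 after LPS, with group means of 493 ± 81.3 and 96.8 ± 40.3 (SD, n = 3). The log2 change was -2.27 (SE 0.287, adjusted p = 0.000604), and LPS array 1 was the lowest. Chek1, the kinase that ATR activates, read 216.5, 197.6 and 121.6 untreated and 23.4, 53 and 36.2 after LPS. The groups did not overlap, and LPS array 1 was below the limit of background (log2 change -1.93, SE 0.315, adjusted p = 0.00276). Atr, which responds to stalled replication, read 172.9, 157.5 and 124.3 untreated and 44.8, 68 and 44.4 after LPS. It fell by 1.34 (SE 0.19, adjusted p = 0.00122). Chek2, the kinase downstream of ATM, read 169.2, 192.8 and 175.7 untreated and 74.8, 88.2 and 73.4 after LPS, with little spread in either group. It fell by 1.07 (SE 0.131, adjusted p = 0.000508). Atm, which responds to double-strand breaks, read 235.2, 254.8 and 209.9 untreated and 113.4, 124.5 and 97.7 after LPS. It fell by 0.98, the smallest change of the group (SE 0.139, adjusted p = 0.0012).

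**Figure D2:**
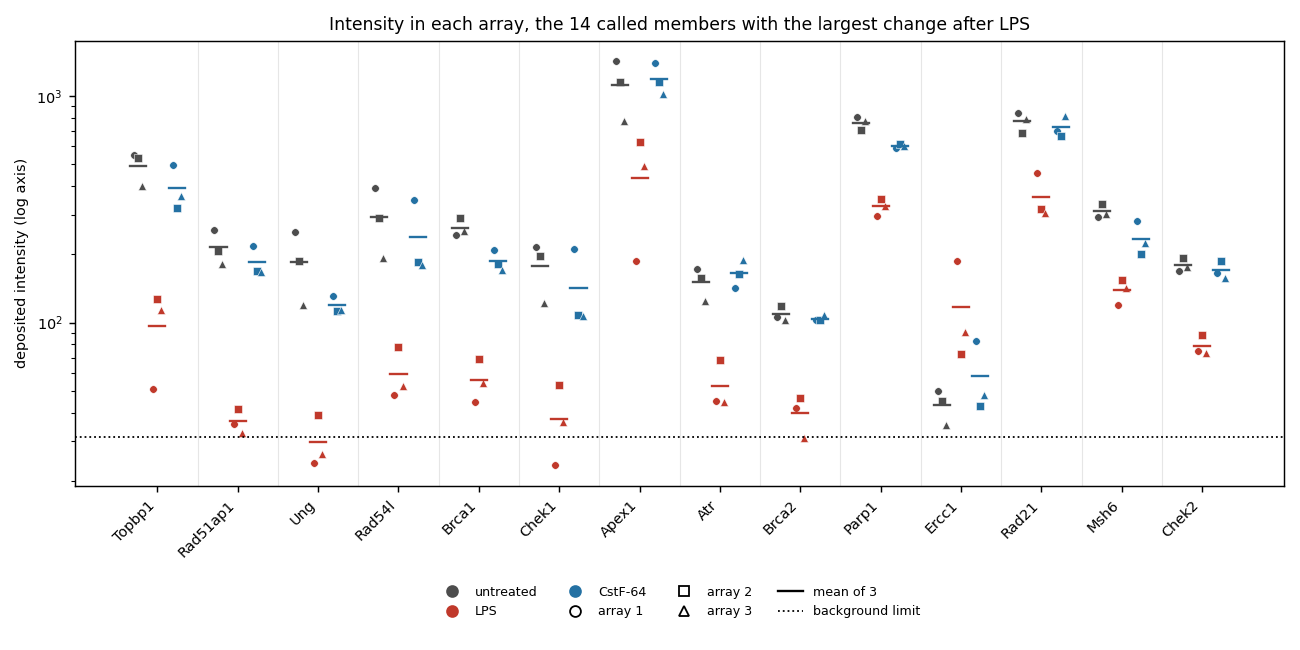
Deposited intensity (log axis) in each of the 9 arrays for the 14 called members with the largest change after LPS; colours are groups, shapes are arrays, bars are means of 3 and the dotted line is the background limit of 31.2. The 3 LPS arrays lie below all untreated arrays for 13 of the genes and above them for Ercc1, and the CstF-64 arrays lie above all LPS arrays for those 13.

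Among base excision and single-strand break genes 5 of 8 fell (62.5%, against 10.4% of all named genes), with a median of -0.80. Ung, the glycosylase that removes uracil from DNA, read 250.5, 186.6 and 119.6 untreated and 23.9, 39.2 and 26.2 after LPS. With 2 of the 3 LPS arrays below the background limit, its log2 change of -2.18 (SE 0.245, adjusted p = 0.000305) is read against a floor in those arrays. Parp1, which binds strand breaks and builds poly(ADP-ribose), read 805.3, 711.3 and 773.3 untreated and 296.6, 351.5 and 328.3 after LPS. Both groups were tight and apart (log2 change -1.20, SE 0.106, adjusted p = 6.65e-05). Apex1, the endonuclease that cuts at abasic sites, was the brightest member, with 1430, 1155 and 772.8 untreated and 187.2, 629.8 and 491.4 after LPS. The groups did not overlap but both spread widely, and the call (-1.45, SE 0.387, adjusted p = 0.0299) was lost without untreated array 1 (adjusted p = 0.103) or 2 (adjusted p = 0.0926). It was also lost after median centring (adjusted p = 0.0551) and with the 2 groups alone (adjusted p = 0.0581). The dimmer Apex1 probe sets were both called lower too (-1.17, adjusted p = 0.00423, and -1.59, adjusted p = 0.00829). Parp2, a relative of Parp1, fell by 0.91 (adjusted p = 0.00995). Xrcc1, the scaffold of single-strand break repair, fell by 0.68 (adjusted p = 0.0174), and the call was lost without untreated array 1 (adjusted p = 0.0668). The Xrcc1 call was also lost after quantile normalization (adjusted p = 0.072) or median centring (adjusted p = 0.0587). The remaining 3 genes were not called. Lig3, the ligase held by XRCC1, was lower on every LPS array by its brightest probe set (-0.41, adjusted p = 0.0781). Its next brightest probe set overlapped (0.03, adjusted p = 0.946). The dimmer Lig3 probe sets had changes of -0.52, 0.07 and 0.24, the last of them below background on all arrays, and none was called. Ogg1, the glycosylase for oxidized guanine, read 23.3, 108.8 and 83.4 after LPS and thus overlapped with its untreated range of 93.4 to 103.3 (-0.55, adjusted p = 0.406). Polb, the gap-filling polymerase, had a change of 0.23 (adjusted p = 0.521). Its dimmer probe sets moved in opposite directions, by 0.36 (adjusted p = 0.184) and -0.37 (adjusted p = 0.252), and neither was called.

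In mismatch repair 2 of 4 genes fell (50%, against 10.4% of all named genes), with a median of -0.89. Msh6, which recognizes single mismatched bases, read 291, 334.7 and 302.5 untreated and 119.4, 154.6 and 142.7 after LPS. The groups were well separated, with a log2 change of -1.09 (SE 0.149, adjusted p = 0.00101). Pms2, a subunit of the endonuclease that nicks the new strand, read 100.9, 100.9 and 100.1 untreated and 54.1, 49.3 and 37.6 after LPS. It fell by 0.93 (SE 0.151, adjusted p = 0.00257). Exo1, the exonuclease that removes the mismatched strand, had all LPS arrays (76.4, 52.8 and 40.3) below the untreated ones (130.5, 116.2 and 87.4) but missed the threshold (-0.86, adjusted p = 0.0721). It passed without LPS array 1 (-1.05, adjusted p = 0.0474), and its second, dimmer probe set was called (adjusted p = 0.00188). That probe set was at or below background on all LPS arrays, which makes it at least 1.84-fold lower. Msh3, which recognizes larger loops, was dim and overlapped (0.00, adjusted p = 0.997).

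Among the genes of break sensing and cohesin 2 of 4 fell (50%, against 10.4% of all named genes), with a median of -0.56. Rad21, a cohesin subunit that holds sister chromatids together, read 839.8, 689.5 and 796.1 untreated and 457.6, 316.8 and 304.1 after LPS. Here LPS array 1 was the highest of its group, and the log2 change was -1.1 (SE 0.165, adjusted p = 0.0017). Rad50, the coiled-coil subunit of the complex that binds broken ends, read 296.6, 299.6 and 290.2 untreated and 125, 175.9 and 181.3 after LPS, with a log2 change of -0.84 (SE 0.142, adjusted p = 0.00321). A second Rad50 probe set was at or below 29.8 on all arrays and was not called. Of the other subunits of that complex, the nuclease Mre11a was lower on all LPS arrays without passing (-0.27, adjusted p = 0.147), and Nbn overlapped (-0.09, adjusted p = 0.815).

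Of the end joining genes 2 of 4 fell (50%, against 10.4% of all named genes), with a median of -0.80. Xrcc6, the KU70 subunit of the ring that caps broken ends, read 209.7, 175.4 and 146.2 untreated and 68, 99.5 and 77 after LPS. The groups did not overlap (log2 change -1.01, SE 0.192, adjusted p = 0.00606). Xrcc5, the KU80 subunit, was dim, with 51.6, 34.7 and 30.8 untreated and 10.2, 27.9 and 21.3 after LPS, all of the latter below the background limit (-0.68, adjusted p = 0.0889). Prkdc, the kinase that KU recruits, fell by 0.92 (SE 0.273, adjusted p = 0.0458) from 78.9, 73.3 and 50.7 to 17.1, 39.8 and 33.7. That call was lost when any 1 of the 6 arrays except LPS array 2 was left out, with adjusted p from 0.0502 without untreated array 3 to 0.14 without untreated array 1. It was 0.137 without untreated array 2, 0.113 without LPS array 1 and 0.0796 without LPS array 3. The Prkdc call was also lost after quantile normalization (adjusted p = 0.109) or median centring (adjusted p = 0.0867). A pseudocount of 50 (adjusted p = 0.0525) and the 2 groups alone (adjusted p = 0.0568) lost it too. Xrcc4, which stabilizes the ligase of this pathway, overlapped (0.14, adjusted p = 0.601).

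Of the Fanconi anaemia genes 2 of 4 fell (50%, against 10.4% of all named genes), with a median of -0.48. Fanca, a subunit of the core complex, read 193.7, 212.9 and 193.6 untreated and 118.9, 100.7 and 101.3 after LPS, with a log2 change of -0.83 (SE 0.16, adjusted p = 0.00646). Fancg, another core subunit, read 119.1, 112.7 and 93.9 untreated and 54.9, 75.5 and 67.2 after LPS. Its groups did not overlap, but the call (-0.63, SE 0.154, adjusted p = 0.0208) was lost without untreated array 1 (adjusted p = 0.0747), untreated array 2 (adjusted p = 0.0788) or LPS array 3 (adjusted p = 0.0519), and also after quantile normalization (adjusted p = 0.0906) or median centring (adjusted p = 0.0794). A second Fancg probe set was lower on all LPS arrays and not called (-0.53, adjusted p = 0.0659). Fancl, the ubiquitin ligase of the complex, had a change of -0.33 (adjusted p = 0.152). Fancc, also of the core complex, had a change of -0.13 (adjusted p = 0.754).

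Of the nucleotide excision repair genes 0 of 8 fell and 1 rose, with a median of -0.08. The called share of 12.5% was near the 17.1% of all named genes, of which 10.4% were lower. By unadjusted p under 0.05 there were 2 of 8, and 29% of all named genes. Ercc1, which with XPF cuts on the 5' side of the lesion, read 49.6, 44.8 and 35.2 untreated and 187.3, 72.8 and 90.6 after LPS. All LPS arrays were higher, LPS array 1 by far the most (log2 change 1.12, SE 0.321, adjusted p = 0.0405). Without LPS array 1 the change was 0.75 (adjusted p = 0.0832), and the call was also lost without untreated array 1 (0.075), 2 (0.0996) or 3 (0.123) or LPS array 3 (0.0667), all as adjusted p. Ddb2, which finds ultraviolet damage, read 49.4, 60.5 and 49.9 untreated and 31, 28.7 and 30 after LPS, the latter all under the background limit, and missed the threshold (-0.62, adjusted p = 0.0581). It passed with probe sets above background only (adjusted p = 0.0281) and without the intensity trend (adjusted p = 0.0359). A second, dimmer Ddb2 probe set was called (adjusted p = 0.0251), also with all LPS arrays at or below background, and was at least 1.15-fold lower. Ddb1, the partner of DDB2 and a bright gene, was lower on all LPS arrays (379.5, 523.9 and 525.8, against 555.8, 666.3 and 563.2 untreated) without passing (-0.32, adjusted p = 0.175). The TFIIH helicases Ercc2 (-0.40, adjusted p = 0.535) and Ercc3 (-0.07, adjusted p = 0.861) overlapped. The 3'-side nuclease Ercc5 (0.00, adjusted p = 0.998) and the lesion-binding proteins Xpa (0.18, adjusted p = 0.625) and Xpc (-0.10, adjusted p = 0.774) overlapped too. No test of the difference between pathways was run, and these groups hold 4 to 8 genes each.

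**Figure D3:**
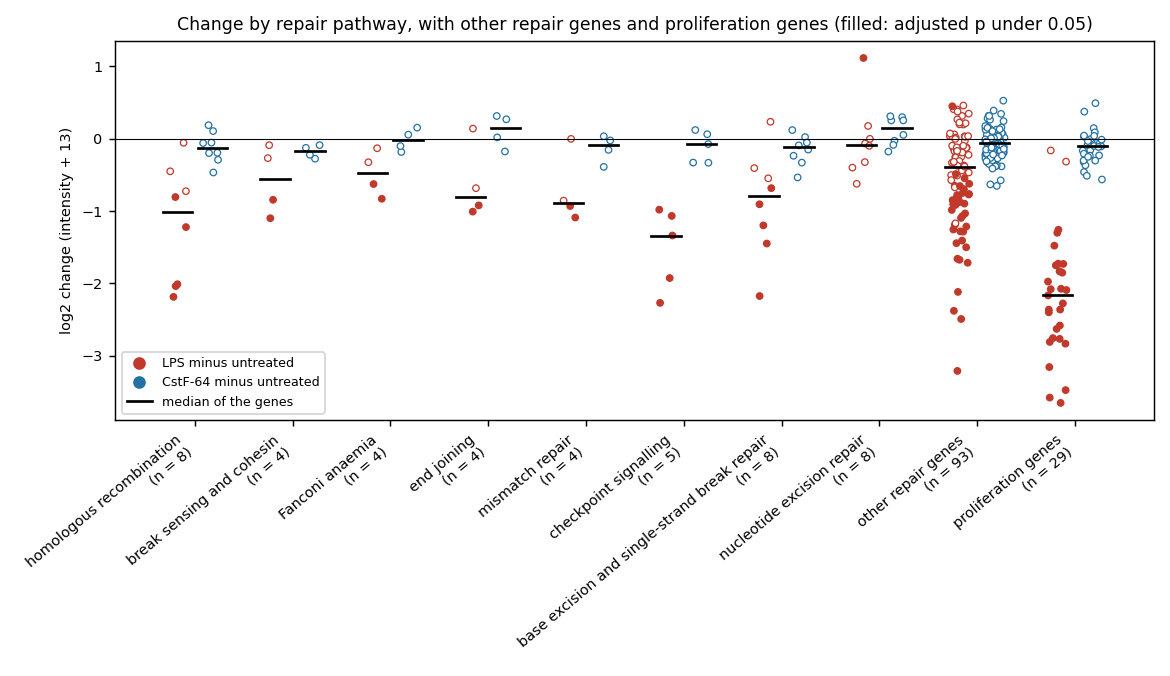
Log2 change of every measured gene by pathway for LPS against untreated and CstF-64 against untreated, beside other repair genes and proliferation genes; bars are medians and filled points passed an adjusted p under 0.05. After LPS the medians run from -1.34 for checkpoint signalling to -0.08 for nucleotide excision repair, with -2.17 for proliferation genes, and with CstF-64 the medians run from -0.17 to 0.15.

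Within a group, some arrays were more often the highest or lowest for these genes. This was not tested or set against all named genes. Over the 23 members that fell, untreated array 1 was the highest of its group for 16 and untreated array 3 the lowest for 16. LPS array 2 was the highest of its group for 17 genes and LPS array 1 the lowest for 13. CstF-64 array 1 was the highest for 12 and the lowest for 8. The mean log2 level over the 45 members lay between 7.12 and 7.37 in the untreated arrays and between 6.41 and 6.62 in the LPS arrays, without overlap. Without LPS array 1, which stood apart from its group, 23 of 45 members were called.

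Genes of a broader repair list, none of them a member, were read in the same way. Of 93 measured, 38 fell (40.9%, against 10.4% of all named genes) and 1 rose, with a median of -0.38. The called genes numbered 25 without untreated array 1 and 22 without untreated array 2. The 6 with the largest change were all lower. Pole, the leading-strand DNA polymerase, read 179.8, 167.5 and 126.8 untreated and 3.3, 6.5 and 6.2 after LPS, which is at least 5.01-fold lower given the background limit (adjusted p = 1.04e-05). Ube2t, the ubiquitin-conjugating enzyme of the Fanconi pathway, read 243.7, 194.1 and 247.9 untreated and 30.3, 31.1 and 27.6 after LPS, at least 7.28-fold lower (adjusted p = 1.03e-05). Cdc25c, a phosphatase that starts mitosis, was at least 2.41-fold lower (adjusted p = 2.14e-05). Its LPS arrays read 5.2, 5 and 1.9, against 92.9, 70.4 and 65.2 untreated. Rpa2, a subunit of the single-strand binding protein, fell by 2.12 (adjusted p = 6.65e-05). Timeless, a replication fork protein, fell by 1.72 (adjusted p = 0.000438) and Wee1, the kinase that holds CDK1 inactive, fell by 1.67 (adjusted p = 0.00103). Mapkapk2, a stress kinase, was the 1 gene that rose, by 0.45 (adjusted p = 0.0214). No gene of the list was called higher without untreated array 2, LPS array 2 or LPS array 3, or with the 2 groups alone. Of the nucleotide excision genes on this list 1 of 11 was called (9.09%, against 17.1% of all named genes), with a median of -0.13. End joining had 0 of 5 called, also with a median of -0.13. Damage tolerance and direct reversal had 4 of 14 (28.6%), with a median of -0.18. In the other groups the called share ran from 36.4% (4 of 11, break sensing and cohesin) to 71.4% (5 of 7, Fanconi anaemia).

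Proliferation genes moved with these falls. Of 29 measured, 27 fell after LPS (93.1%, against 10.4% of all named genes). The median over the list was -2.17, a larger fall than the median of the members. The mean log2 level of the list was 8.72 to 8.96 in the untreated arrays and 6.54 to 6.90 in the LPS arrays. Mki67, the classical marker of cycling cells, read 1088.2, 1315.3 and 1079.8 untreated and 80.5, 113 and 85 after LPS. The 6 licensing genes Mcm2 to Mcm7 fell too, and Mcm7 fell by 2.36 (adjusted p = 2.38e-05). The part of proliferation in the change of the repair genes was not tested.

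For 21 members more than 1 probe set allowed a test of whether the probe sets of a gene changed alike. Between LPS and untreated arrays 3 of the 21 were called unequal by limma's diffSplice F test, against 5.59% of the 4956 genes with several probe sets. These were Brca1 (adjusted p = 0.000268), Chek1 (adjusted p = 0.00374) and Rad51ap1 (adjusted p = 0.0158). In Brca1 the brightest probe set fell by 2.01, and another 2 were called as well. These 2 were at or below background on all LPS arrays, so they were at least 4.15-fold and at least 1.9-fold lower. The remaining probe set was 1427698_at, which read 54.5, 50.9 and 58.2 untreated, 97.4, 46.5 and 46.8 after LPS and 110.5, 39.6 and 41.3 with CstF-64. On that probe set array 1 of both the LPS and the CstF-64 group stood above all other arrays, and the change was 0.12 (adjusted p = 0.878). In Chek1 the second probe set, at or below background on all LPS arrays, was at least 2.1-fold lower. The 2 probe sets that did not fall, 1420031_at and 1420032_at, were at or below background on all arrays, with readings up to 13.1. In Rad51ap1 all 4 probe sets fell. Of these, 2 were at or below background on all LPS arrays (at least 4.6-fold and at least 1.09-fold lower) and another on 1 LPS array, so their sizes cannot be ordered. The call held for Brca1 under all alternatives tried. With a pseudocount of 1 both others were lost, and with probe sets above background only Chek1 was lost. Chek1 was also lost without untreated array 1, and Rad51ap1 without untreated array 1, untreated array 2 or LPS array 1. Between CstF-64 and untreated arrays 0 of the 21 members were called unequal (0.0404% of the 4956 genes). Between CstF-64 and LPS arrays 3 of the 21 were, against 5.67% of the 4956 genes, namely Brca1 (adjusted p = 0.00411), Rad51ap1 (adjusted p = 0.0114) and Polb (adjusted p = 0.0385). The second Polb probe set read 96.9, 132.7 and 138.4 after LPS and 80.6, 80.8 and 73.2 with CstF-64 and was called lower with CstF-64 (-0.56, adjusted p = 0.0476). The brightest Polb probe set (-0.29, adjusted p = 0.422) and the dimmest (0.47, adjusted p = 0.154) were not called.

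**Figure D4:**
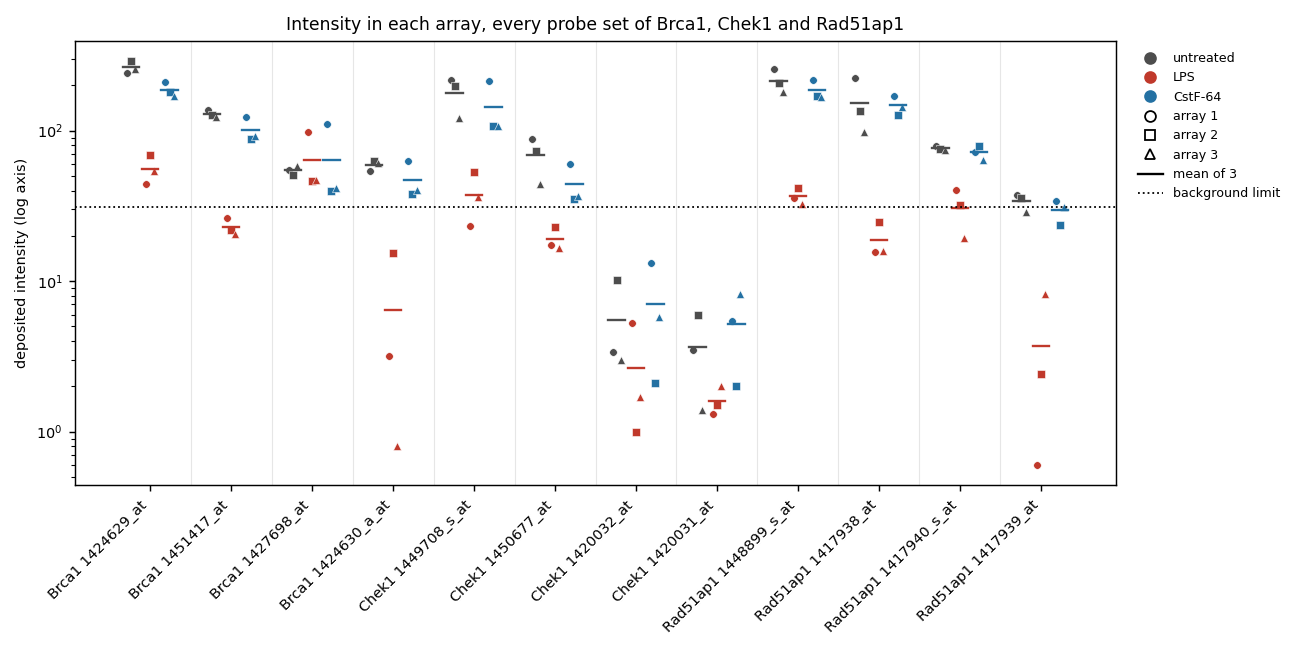
Deposited intensity (log axis) in each array for every probe set of Brca1, Chek1 and Rad51ap1; colours are groups, shapes are arrays, bars are means of 3 and the dotted line is the background limit. Of the 4 Brca1 probe sets 3 drop after LPS and 1427698_at does not, and 2 of the 4 Chek1 probe sets stay under the limit everywhere.

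No repair gene passed the test in the CstF-64 arrays. Of the 45 members 0 were called by limma (lowest adjusted p = 0.515), where 0.274% of all named genes were. At an unadjusted p under 0.05 there were 4 of 45 members, against 6.84% of all named genes. The groups did not overlap in 7 of 45 (15.6%, 6 lower and 1 higher) against 13.4% of all (6.02% lower, 7.41% higher), and the median change was -0.07, against 0.01 over all named genes. The 4 members with a low unadjusted p were all lower. Parp1 read 590.4, 615.9 and 604.5 with CstF-64 against 711.3 to 805.3 untreated (log2 change -0.33, 95% interval -0.57 to -0.09, adjusted p = 0.515). Brca1 read 208.9, 181.3 and 169.8 against 243.1 to 290.4 (-0.47, interval -0.82 to -0.11, adjusted p = 0.572). Msh6 had a change of -0.39 (interval -0.72 to -0.06, adjusted p = 0.67) and Mre11a of -0.28 (interval -0.53 to -0.02, adjusted p = 0.717). In all 4 genes every CstF-64 array was below every untreated one. The lowest change belonged to Ung, with 130.8, 112.9 and 113.5 (-0.54, interval -1.08 to 0.01, adjusted p = 0.787). Of these readings 1 fell inside its untreated range of 119.6 to 250.5 and the others lay below it.

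Bard1 aside, which was never above background, 40 of 44 members had a 95% interval within 1 unit either way on the log2(intensity + 13) scale. That scale compresses the changes of dim genes, so for them this is not a bound on the change in transcript. The exceptions were Chek1 and Ung on the lower side and Ercc1 and Ercc2 on the higher side. For all 23 members that fell after LPS, the interval of the CstF-64 change lay above the point estimate of the LPS change. That count is no test of a difference between the 2 groups, because these members were selected by their fall. Both changes also use the same untreated arrays and the same estimate of spread, and the interval of the LPS change was not considered. CstF-64 array 1 departed from the other arrays of its group for some genes. Chek1 read 212.2 on it and 107.8 and 107.4 on the others, and Rad54l read 347.8, 184.4 and 180.2. Leaving this array out gave 0 calls among the members as well. Of the 93 other repair genes 0 were called, with 5 at an unadjusted p under 0.05, and of the 29 proliferation genes 0, with 2, where 6.84% of all named genes had such a p.

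The CstF-64 and LPS groups were also compared directly, which uses the same LPS arrays as above and is therefore not separate evidence for the fall after LPS. Of the 45 members, 23 were higher in the CstF-64 arrays and 0 were lower, where 15.9% of all named genes were called, 9.51% as higher and 6.38% as lower. In 30 members (66.7%) every CstF-64 array was above every LPS array, against 19.6% of all named genes. In the other direction there were 0 members and 12.1% of all named genes, and 31.7% had no overlap either way. The median difference was 0.70, against 0.05 over all named genes. All 5 checkpoint members were higher, led by Topbp1 with 497.3, 319.3 and 360.3 in the CstF-64 arrays (difference 1.94, adjusted p = 0.00166) and Chek1 (1.60, adjusted p = 0.00786). Atr read 142.7, 164.1 and 189.7 with CstF-64, above its LPS range of 44.4 to 68 (1.46, adjusted p = 0.00079). The largest difference was that of Rad51ap1, with 217.6, 168.9 and 168 (1.99, adjusted p = 5.47e-05). Brca1 (1.55, adjusted p = 0.000199), Brca2 (1.16, adjusted p = 0.000953) and Rad54l (1.75, adjusted p = 0.0041) were higher as well. Xrcc5 passed here (0.95, adjusted p = 0.0266) with 58.4, 45 and 44 against LPS arrays under the background limit, but the call was lost without any 1 of LPS arrays 1 and 3 (adjusted p = 0.0575 and 0.0583) or CstF-64 arrays 1, 2 and 3 (0.0754, 0.0643 and 0.0616). Quantile normalization (adjusted p = 0.0711) and median centring (adjusted p = 0.0644) lost the Xrcc5 call too. None of the 8 nucleotide excision genes was called (3 had an unadjusted p under 0.05, as had 28.7% of all named genes), and Ercc1 overlapped (-0.82, adjusted p = 0.127). Among the 93 other repair genes, 27 were higher and 1, Mapkapk2, was lower (-0.44, adjusted p = 0.0263). The 6 with the largest difference were all higher, with Pole at least 3.03-fold, Ube2t at least 6.24-fold and Cdc25c at least 2.1-fold. Next came Rpa2 (1.74, adjusted p = 0.000253), Wee1 (1.68, adjusted p = 0.00106) and Neil3, a glycosylase (1.56, adjusted p = 0.00404). Calls differed from those of the brightest probe set in the second probe sets of Exo1 (adjusted p = 0.00273) and Ddb2 (adjusted p = 0.0364), called at least 1.74-fold and at least 1.07-fold higher with CstF-64. They differed too in those of Chek1 (0.81, adjusted p = 0.0582) and Fancg (0.45, adjusted p = 0.123), which were not called. Without LPS array 1 the count was 21 and without CstF-64 array 1 it was 22.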

How the data were processed

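The authors deposited linear intensities, 1 for each probe set on each array. Which software made them is not stated in the labels or file headers. Array trimmed means differed by less than a factor of 1.1, so the values were kept as deposited. The arrays had already been scaled to a common trimmed mean, so this rule could not have flagged the difference in their medians (42.75 to 54.2). The 64 control probe sets were left out and all 9 arrays were used. Log2(intensity + 13) was computed from the deposited intensities, where 13 is 0.25 of the overall median, rounded. It was fitted with limma 3.58.1 (lmFit, then eBayes with its trend option; R 4.3.3), with 1 mean per group, two-sided tests and Benjamini-Hochberg adjustment over 22626 probe sets. A gene is represented by its probe set with the highest mean over 9 arrays. Symbols came from the platform annotation, in which 20380 probe sets carry 1 symbol, 691 several and 1555 none. The scripts were tested on simulated data.

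All 45 measured members were named, with array values for the called members of largest change (at most 14 after LPS), for the best in each pathway and for some further members chosen after their values were seen. Second probe sets were described where their call differed from that of the brightest, where the probe sets were called unequal, and for some further members. Of other repair genes, the 6 called with the largest change in each comparison were named. The single riser Mapkapk2 and Mcm7 and Mki67 were chosen after their values were seen. Members and lists were chosen with earlier results of these data known. Alternatives were quantile normalization, median centring, pseudocounts of 1 and 50, probe sets above background only, no intensity trend, a replicate block, the 2 groups alone, any probe set of a gene, and each array left out. Precision is limited by 3 arrays per group.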

Additional observations from a re-analysis of the deposited data

How the results depend on the processing

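No member changed sign among the called values under any of 14 alternatives per gene. After LPS 19 of the 24 called members were called under every alternative, and Apex1, Ercc1, Fancg, Prkdc and Xrcc1 were each lost under some, while Ddb2, Exo1 and Xrcc5, not called, passed under some. The count of members called after LPS ran from 19 without untreated array 1 to 27 with probe sets above background only, which tests fewer probe sets. It was 21 with quantile normalization and 20 with median centring. For CstF-64 against untreated 0 members were called under every alternative. Between CstF-64 and LPS, 16 of 23 members were called under every alternative, and the count was 18 with quantile normalization and 17 with median centring. Over all probe sets, leaving out 1 array gave 2399 (without untreated array 2) to 3485 calls after LPS, compared with 3755, and 2093 (without CstF-64 array 3; 2163 without CstF-64 array 2) to 3299 between CstF-64 and LPS, compared with 3443. For CstF-64 against untreated it gave 18 (without untreated array 2) to 110 (without CstF-64 array 1), compared with 56, with 28, 24 and 20 without untreated array 3, CstF-64 array 2 and CstF-64 array 3. Other repair genes called after LPS ranged from 22 to 33 in these fits, compared with 39, and were 28 with quantile normalization or median centring. The members with unequal probe sets after LPS numbered 1 with a pseudocount of 1, 5 with a pseudocount of 50 and 1 to 4 with an array left out, compared with 3. With the replicate number as a block, although same-numbered arrays did not deviate together (9 correlations from -0.063 to 0.158, 3 of them over 0.1), 25 members were called after LPS, 0 for CstF-64 against untreated and 25 between CstF-64 and LPS, 37 other repair genes were called after LPS, and calls over all probe sets for CstF-64 against untreated numbered 32. The cause of these shifts was not tested. Signal near background limits Bard1, Xrcc5, Ddb2, Ung and Msh3 most.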

Other observations

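Genes that p53 is known to induce moved both ways after LPS. Of 19 measured, 5 rose and 2 fell, that is 36.8% called, against 17.1% of all named genes (6.67% higher, 10.4% lower), with a median of 0.02. Plk2, a kinase induced by stress, read 68.7, 179.9 and 270.2 untreated and 1565.5, 1576.9 and 1797.9 after LPS (log2 change 3.33, limma adjusted p = 0.000435). Mdm2, the ubiquitin ligase that degrades p53, rose from between 517.1 and 585.4 to between 1290.1 and 2373.2 (1.56, adjusted p = 0.000582). Fas, a death receptor, was at least 5.96-fold higher (adjusted p = 4e-05), being under the background limit in all untreated arrays. Sesn2, which restrains growth under stress, rose by 1.04 (adjusted p = 0.0227). Gadd45a, a growth arrest gene, was at least 1.03-fold higher (adjusted p = 0.0386), with 18, 43.4 and 42.8 after LPS and all untreated arrays under the background limit. Sesn1 fell by 0.99 (adjusted p = 0.000768) and Ppm1d, the phosphatase that switches off checkpoint signalling, fell by 0.75 (adjusted p = 0.0164). Cdkn1a, the CDK inhibitor p21, was not called (0.83, adjusted p = 0.145). It read 3820.4, 1419.4 and 1967.7 after LPS, which overlapped with 988.9 to 1662.7 untreated. With CstF-64, 0 of the 19 were called by limma, with 2 at an unadjusted p under 0.05 (6.84% of all named genes).

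Tdg, the thymine DNA glycosylase, was read only by 3 probe sets annotated also with its pseudogenes. Their intensities ran from 216.6 to 399.2 over the 9 arrays, and none was called after LPS (changes of 0.20, 0.05 and 0.00, adjusted p from 0.414 to 0.991). The signal cannot be divided between the gene and the pseudogenes.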
